A study of Mus musculus with 12 samples.

Results

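Growth arrest was followed through 8 genes. They were the 3 Cip/Kip inhibitors of cyclin-dependent kinases, *Cdkn1a* (p21), *Cdkn1b* (p27) and *Cdkn1c* (p57), the 3 genes of the *Gadd45* family, *Gadd45a*, *Gadd45b* and *Gadd45g*, and the p53 target genes *Ccng1* (cyclin G1) and *Mdm2*. They were taken by symbol from the 22276 gene symbols of the series, and the list was drawn up with the values of these libraries known, since *Cdkn1a* and *Gadd45g* stood out for their difference between treatments and genotypes. Their levels and fold differences are therefore given as a description, without a test.

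Transcripts were measured by RNA-seq in liver, gastrocnemius (a calf muscle) and gonadal WAT (white fat) of male C57BL/6J mice that drank corticosterone (CORT, the main glucocorticoid of rodents) or vehicle, to ask how the glucocorticoid receptor (GR) of muscle shapes the response of each tissue. All mice carried *Nr3c1*, the GR gene, with exon 3 floxed. GRf/f mice had the floxed gene alone, and GRmKO mice had in addition *Acta1*-Cre, which is active in myofibres from development on and leaves the gene intact in other cells. The groups in each tissue were GRf/f mice on vehicle (1% ethanol in the drinking water), GRf/f mice on CORT (100 µg/mL in 1% ethanol), GRmKO mice on vehicle and GRmKO mice on CORT, all started at 8 weeks of age and treated for 4 weeks. Each of the 12 groups was a single library made from the pooled RNA of 3 mice, so the spread between mice is unknown and no p-value is given.

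Cyclin-dependent kinases carry a cell from G1 into S phase, and the Cip/Kip proteins bind these kinases with their cyclins and hold the cell in G1. p53, the transcription factor activated by DNA damage, is known to raise *Cdkn1a*, *Gadd45a*, *Ccng1* and *Mdm2*, and the MDM2 protein in turn marks p53 for degradation. GADD45 proteins are small stress-induced proteins that bind p21 and activate the kinase MAP3K4. In tissues that hardly divide, such as muscle and fat, the same genes are known as markers of stress and atrophy, and glucocorticoids are known to raise *Cdkn1a* in several cell types.

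The libraries held 19394572 to 20940660 expected counts, and levels are given as CPM, the count scaled to a common library total. Intervals in parentheses are 95% intervals that cover counting error only, not the spread between mice. The GR gene *Nr3c1* in GRmKO gastrocnemius stood at 41.2% of the GRf/f level under vehicle and 39.2% under CORT, against 81.5% to 110% in liver and gonadal WAT. *Fkbp5*, a direct GR target, was 3.03- to 6.00-fold higher with CORT in the 3 tissues of GRf/f mice and 0.694-, 2.09- and 1.28-fold the vehicle level in gastrocnemius, liver and gonadal WAT of GRmKO mice. The markers of each labelled tissue were abundant, with summed levels of 112304 to 150544 CPM for 10 myofibre markers in gastrocnemius, 103403 to 169123 CPM for 10 hepatocyte markers in liver and 43937 to 64587 CPM for 10 adipocyte markers in gonadal WAT. The 6 epididymis markers summed to at most 1.10 CPM in gonadal WAT, and 5 mesothelial markers to between 262 and 390 CPM. These are bulk samples, in which fewer cells of a type and less RNA per cell cannot be told apart.

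*Cdkn1a* encodes p21, the broadest of the Cip/Kip inhibitors. In gastrocnemius of GRf/f mice it stood at 37.3 CPM under vehicle and 188 CPM under CORT, and in that of GRmKO mice at 37.5 CPM and 44.6 CPM. Of these, only CORT-treated GRf/f muscle was high, and the other 3 libraries lay within 37.3 to 44.6 CPM. CORT thus went with a 5.05-fold higher level (4.67 to 5.48) in GRf/f muscle and a 1.19-fold higher level (1.08 to 1.31) in GRmKO muscle. In liver the levels were 1.12 CPM and 41.0 CPM in GRf/f mice and 4.38 CPM and 10.1 CPM in GRmKO mice, so the highest and the lowest liver library were both from GRf/f mice. The ratio of CORT to vehicle was 36.7-fold (24.7 to 59.2) in GRf/f liver and 2.31-fold (1.79 to 2.97) in GRmKO liver, in which *Nr3c1* stood at 105% and 110% of the GRf/f level. In gonadal WAT the levels were 27.1 CPM and 345 CPM in GRf/f mice and 34.4 CPM and 301 CPM in GRmKO mice, a 12.7-fold (11.7 to 13.9) and an 8.76-fold (8.09 to 9.49) higher level with CORT. Both CORT libraries of fat lay far above both vehicle libraries, whichever the genotype.

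Among all genes tested, the log2 change of *Cdkn1a* with CORT in GRf/f mice stood in place 39 of 13543 from the highest in muscle, in place 12 of 12485 in liver and in place 12 of 14218 in gonadal WAT. In GRmKO mice the place was 1844 in muscle, 268 in liver and 11 in gonadal WAT. Over the 12 libraries the order of *Cdkn1a* levels ran from both CORT-treated fat libraries, through CORT-treated GRf/f muscle, to vehicle-treated GRf/f liver at the bottom. From 44.6 CPM in CORT-treated GRmKO muscle down to 34.4 CPM in vehicle-treated GRmKO fat, each level and the next lower one had overlapping counting intervals, and CORT-treated GRf/f liver lay within that stretch.

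The deposited *Cdkn1a* entry is the transcript ENSMUST00000023829, with 3 exons and 1913 bases, of a gene at chr17:29090976-29100727 on the plus strand of GRCm38. It is 1 of 4 protein-coding transcripts of the gene and starts at position 29093769, inside the gene. The file does not settle whether its value is that of this transcript or of the gene, and how reads were divided between the 4 transcripts was not tested. A gene of unknown type on the opposite strand, AC167363.2, overlaps it, and since it is not given in the sources used here whether the libraries kept strand, reads of the pair cannot be told apart. RefSeq (GRCm38.p6) lists a start for each first exon, and the 250 bases before both are shown because the 2 windows differ in motif content. Capitals mark matches, on either strand, to a p53 motif of 10 bases, to the GC box GGGCGG, to CCAAT, to the TATA box TATAAA, to the E-box CACGTG or to the FoxO motif GTAAACA, and no matches of different motifs overlap in the windows printed here.
*Cdkn1a*, start of the deposited transcript, chr17:29093519-29093768, plus strand: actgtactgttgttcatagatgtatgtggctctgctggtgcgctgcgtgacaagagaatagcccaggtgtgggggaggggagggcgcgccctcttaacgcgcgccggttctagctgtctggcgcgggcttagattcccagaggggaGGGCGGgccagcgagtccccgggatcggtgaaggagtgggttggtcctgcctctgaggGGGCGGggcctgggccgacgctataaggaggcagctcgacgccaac
*Cdkn1a*, upstream start, chr17:29090729-29090978, plus strand: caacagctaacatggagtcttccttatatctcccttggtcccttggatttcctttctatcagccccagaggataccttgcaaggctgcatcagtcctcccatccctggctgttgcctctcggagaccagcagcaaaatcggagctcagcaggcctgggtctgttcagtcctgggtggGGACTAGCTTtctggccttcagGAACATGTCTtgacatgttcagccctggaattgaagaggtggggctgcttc
The window at the deposited start holds 2 GC boxes and none of the other motifs. The upstream window holds 2 matches to the p53 motif, beginning at positions -73 and -51 relative to the start. The GR motif AGAACA was found in neither window, which says only that these letters are not there.

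**Figure D1:**
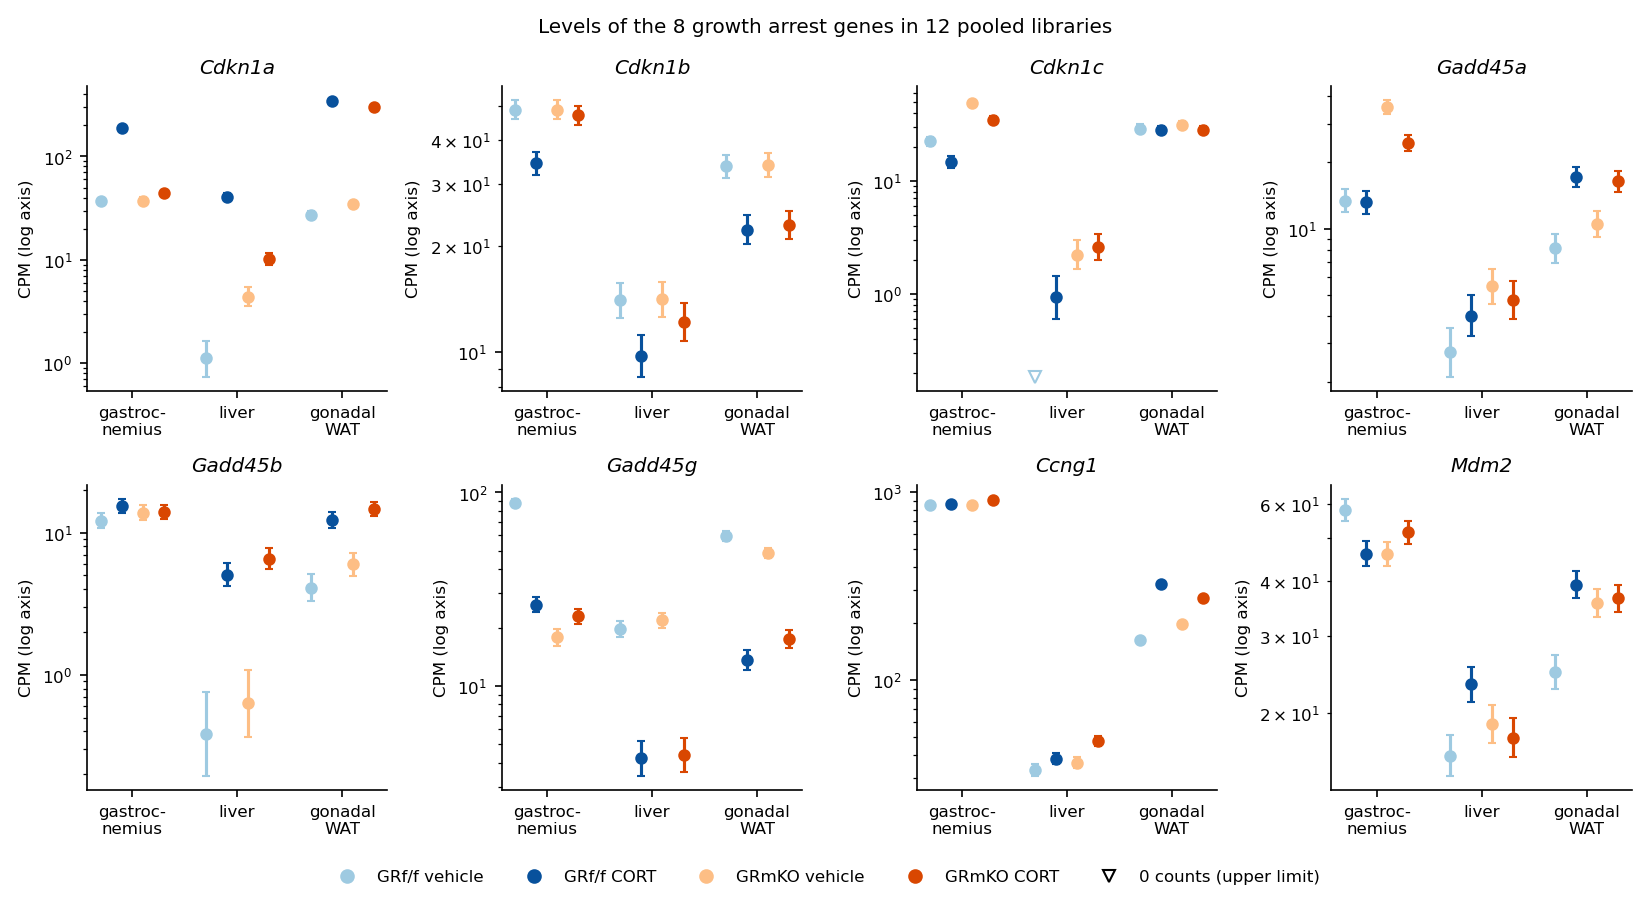
Level of each growth arrest gene in CPM (log axes with different ranges, with no zero) in the 12 pooled libraries, grouped by tissue, with colours for genotype and treatment. Points are single libraries and bars are 95% Wilson counting intervals, and the open triangle marks a library listed at 0. *Cdkn1a* reaches 345 CPM and 301 CPM in CORT-treated fat and 188 CPM in CORT-treated GRf/f muscle, while *Gadd45g* is highest, at 88.4 CPM, in vehicle-treated GRf/f muscle.

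Markers of other cells differed along with some of these levels. In gastrocnemius 10 adipocyte markers were followed, of which only *Cidec* was listed at 0, in 1 library. Between CORT and vehicle 5 of the 9 tested were at least 2-fold higher and 1 lower in GRf/f mice, and 4 were higher and 0 lower in GRmKO mice. Their summed levels were 2961 and 2243 CPM in GRf/f muscle and 5143 and 4817 CPM in GRmKO muscle, vehicle before CORT. These sums rest on markers other than *Lep*, *Adipoq* and *Retn*, at 2.01, 14.6 and 5.93 CPM in vehicle-treated GRf/f muscle. Under CORT these stood at 93.6, 63.0 and 21.6 CPM there, higher while the sum was lower. The sums therefore cannot be read as a share of fat cells. The median marker stood at 0.545% and 2.80% of its own level in the matching fat library in GRf/f mice and at 0.547% and 1.82% in GRmKO mice. At those shares the fat libraries would bring 9.65 CPM of *Cdkn1a* to CORT-treated GRf/f muscle, of the 188 CPM measured, and 5.48 CPM to CORT-treated GRmKO muscle, of 44.6 CPM. In gonadal WAT the 10 macrophage markers summed to 826 and 2143 CPM in GRf/f mice and to 1074 and 1994 CPM in GRmKO mice, and 6 and 2 of them were at least 2-fold higher with CORT. In the same fat the 8 endothelial markers summed to 789 and 307 CPM in GRf/f mice and 749 and 395 CPM in GRmKO mice, with 6 and 2 of 8 lower. The 8 T and B cell markers summed to 17.2 and 2.06 CPM and to 22.5 and 4.90 CPM, with 8 and 7 of 8 lower. In liver the 10 macrophage markers summed to 173 and 61.7 CPM in GRf/f mice and 146 and 83.0 CPM in GRmKO mice, with 5 and 4 of 10 lower with CORT. Of all genes, 7.97%, 11.6% and 13.6% were past 2-fold with CORT in GRf/f muscle, liver and fat. In GRmKO mice the shares were 6.53%, 5.61% and 9.1%. None of the macrophage and endothelial markers was at 0 in any of these libraries. The part of these cells in the levels of the growth arrest genes in fat and liver was not tested.

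*Cdkn1b* (ENSMUST00000003115, chr6:134920401-134925513, plus strand) encodes p27, which is raised in cells that leave the cycle and is controlled largely by protein breakdown. It stood at 48.7 and 34.3 CPM in gastrocnemius of GRf/f mice, vehicle before CORT, and at 48.7 and 46.9 CPM in that of GRmKO mice. In liver the values were 14.0 and 9.77 CPM in GRf/f mice and 14.1 and 12.2 CPM in GRmKO mice, and in gonadal WAT 33.6 and 22.3 CPM and 33.9 and 23.0 CPM. The vehicle libraries of the genotypes were alike in every tissue, and the CORT library was the lower of each pair. With CORT *Cdkn1b* had a 1.42-fold lower level (1.29 to 1.57) in GRf/f muscle, 1.51-fold (1.34 to 1.71) in GRf/f fat and 1.47-fold (1.31 to 1.67) in GRmKO fat. In GRf/f liver the CORT level was 0.696-fold (0.579 to 0.836) of the vehicle level. In GRmKO muscle and liver the differences were 1.04-fold (0.949 to 1.14) and 1.16-fold (0.976 to 1.38) and lay within counting error, and the one in muscle turned to a log2 change of 0.09 in the other direction under TMM and median-of-ratios scaling. None of the 6 differences reached 2-fold. *Cdkn1a* and *Cdkn1b*, of the same protein family, thus differed in opposite directions with CORT in GRf/f mice in all 3 tissues.

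*Cdkn1c* (ENSMUST00000037287, chr7:143458339-143461050, minus strand) encodes p57, an imprinted inhibitor with a role in muscle differentiation. Its level in gastrocnemius differed more between genotypes than between treatments, with 22.4 and 14.7 CPM in GRf/f mice and 48.7 and 34.6 CPM in GRmKO mice, vehicle before CORT. Both GRmKO libraries were above both GRf/f libraries, by 2.18-fold (1.95 to 2.45) under vehicle and 2.36-fold (2.06 to 2.72) under CORT. With CORT the level was 1.53-fold lower (1.31 to 1.78) in GRf/f muscle and 1.41-fold lower (1.28 to 1.55) in GRmKO muscle. In the same libraries the 7 fibroblast markers, none of them at 0, summed to 1846 and 638 CPM in GRf/f mice and 2783 and 907 CPM in GRmKO mice, with 4 and 5 of 7 at least 2-fold lower with CORT, and their part in the level of *Cdkn1c* was not tested. Gonadal WAT showed no such difference, with 28.2 to 31.1 CPM in its 4 libraries. In liver *Cdkn1c* was listed at 0 in vehicle-treated GRf/f mice, and at 0.942 CPM in CORT-treated GRf/f, 2.21 CPM in vehicle-treated GRmKO and 2.60 CPM in CORT-treated GRmKO mice. No fold is given against the entry of 0, because *Trp53*, a gene of every cell, was also listed at 0 in 1 library of each tissue beside values of up to 30.8 CPM in the others. An antisense gene, Gm44732, overlaps *Cdkn1c*.

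*Gadd45g*, the family member known for roles in development and in cytokine signalling, differed with CORT in the opposite direction to *Cdkn1a* in GRf/f mice and in liver and fat of GRmKO mice, but not in GRmKO muscle. In gastrocnemius it stood at 88.4 and 26.2 CPM in GRf/f mice and at 17.8 and 22.8 CPM in GRmKO mice, vehicle before CORT. The vehicle-treated GRf/f muscle was high, and the other 3 libraries lay between 17.8 and 26.2 CPM. CORT went with a 3.37-fold lower level (3.05 to 3.73) in GRf/f muscle and a 1.28-fold higher one (1.12 to 1.48) in GRmKO muscle, whereas under vehicle the GRmKO level was 4.97-fold below that of GRf/f mice (4.44 to 5.59). This last difference stood in place 22 of 13543 from the lowest. In liver *Gadd45g* stood at 19.6 and 4.20 CPM in GRf/f mice and at 21.8 and 4.39 CPM in GRmKO mice, 4.66-fold (3.69 to 5.95) and 4.96-fold (3.95 to 6.29) lower with CORT. In gonadal WAT it stood at 59.6 and 13.6 CPM in GRf/f mice and at 48.7 and 17.5 CPM in GRmKO mice, 4.40-fold (3.85 to 5.04) and 2.78-fold (2.46 to 3.16) lower with CORT. In liver and fat, then, the CORT libraries were low in both genotypes. The log2 change with CORT in GRf/f mice was in place 112 from the lowest in muscle, 102 in liver and 148 in fat. In the order of the 12 libraries, the levels from 26.2 CPM in CORT-treated GRf/f muscle down to 17.5 CPM in CORT-treated GRmKO fat overlapped in their counting intervals with the next lower one, as did both CORT-treated livers at the bottom.

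*Gadd45g* (ENSMUST00000021903, chr13:51846678-51848468, plus strand, GRCm38) has a single protein-coding transcript of 4 exons and 1071 bases, so its reads had no other transcript of the gene to be divided with. Its window is printed with that of *Gadd45b*, because the 2 family members differed with CORT in opposite directions in liver and fat and their windows hold the same 3 core motifs, an E-box, CCAAT and a TATA box.
*Gadd45g*, chr13:51846425-51846674, plus strand: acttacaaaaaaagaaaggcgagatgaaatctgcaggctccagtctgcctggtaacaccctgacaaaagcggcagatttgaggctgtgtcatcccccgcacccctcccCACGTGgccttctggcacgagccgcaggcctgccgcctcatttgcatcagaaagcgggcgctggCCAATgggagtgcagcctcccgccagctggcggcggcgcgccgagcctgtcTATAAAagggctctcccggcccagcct
*Gadd45b*, chr10:80929841-80930090, plus strand: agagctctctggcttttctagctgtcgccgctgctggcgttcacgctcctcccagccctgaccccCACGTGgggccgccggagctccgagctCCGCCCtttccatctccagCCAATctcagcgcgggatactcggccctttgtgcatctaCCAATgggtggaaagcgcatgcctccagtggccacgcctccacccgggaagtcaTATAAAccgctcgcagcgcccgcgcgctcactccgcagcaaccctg
The E-box begins at position -142 relative to the start in *Gadd45g* and at -185 in *Gadd45b*, and the TATA box at -27 and -46. *Gadd45b* has in addition a GC box and another CCAAT. Of 32851 RefSeq promoter windows of the same length, 6.02% hold the E-box, 12.4% the TATA box, 33.8% CCAAT and 32.7% the GC box.

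*Gadd45b* (ENSMUST00000015456, chr10:80930073-80932204, plus strand), the member induced by inflammatory and growth factor signals, was low in vehicle-treated liver, at 0.382 CPM (8 counts) in GRf/f mice and 0.628 CPM (13 counts) in GRmKO mice. With CORT it stood at 5.06 and 6.55 CPM there, 13.2-fold (6.50 to 31.6) and 10.4-fold (5.90 to 20.1) higher. Both CORT livers were clear of both vehicle livers, and the genotypes lay within counting error of each other under either treatment. In gonadal WAT the levels were 4.11 and 12.2 CPM in GRf/f mice and 5.98 and 14.7 CPM in GRmKO mice, 2.98-fold (2.31 to 3.88) and 2.45-fold (1.98 to 3.06) higher with CORT. Gastrocnemius did not share this pattern, with 12.2 and 15.4 CPM in GRf/f mice and 13.8 and 13.9 CPM in GRmKO mice.

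*Gadd45a* (ENSMUST00000043098, chr6:67035096-67037457, minus strand), the p53-responsive member that is also known from denervated and immobilised muscle, was set apart by genotype in gastrocnemius. It stood at 13.3 and 13.2 CPM in GRf/f mice and at 35.9 and 24.6 CPM in GRmKO mice, vehicle before CORT. Both GRmKO libraries were above both GRf/f libraries, by 2.69-fold (2.33 to 3.10) under vehicle and 1.87-fold (1.60 to 2.18) under CORT. Between CORT and vehicle the GRf/f levels lay within counting error, and the GRmKO level was 1.46-fold lower (1.30 to 1.64) with CORT. In that GRmKO pair 9 of 10 macrophage markers were at least 2-fold lower with CORT, at sums of 465 and 172 CPM, as were 5 of 7 fibroblast markers, against 1 of 10 and 4 of 7 in the GRf/f pair, and their part in the level of *Gadd45a* was not tested. In liver the levels were 2.72 and 4.01 CPM in GRf/f mice and 5.46 and 4.71 CPM in GRmKO mice, so that under vehicle GRmKO liver was 2.01-fold higher (1.45 to 2.81). In gonadal WAT *Gadd45a* stood at 8.12 and 17.1 CPM in GRf/f mice and at 10.5 and 16.4 CPM in GRmKO mice, 2.11-fold (1.74 to 2.56) and 1.57-fold (1.31 to 1.87) higher with CORT. The gene E230016M11Rik overlaps *Gadd45a* on the opposite strand.

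Vehicle-treated GRmKO muscle, in which *Gadd45a* and *Cdkn1c* were high and *Gadd45g* low, also differed in other genes. Of 11 tested genes of denervated and immature muscle, 6 were at least 2-fold higher and 1 lower than in GRf/f muscle, beside 4.59% and 3.18% of all genes. Their median log2 change was 1.07 against 0.07 for all genes. Among the 6 were *Actc1*, the cardiac actin of immature fibres, at 1.39 on the log2 scale, *Myog*, the regulator of myoblast fusion, at 1.40 and *Chrng*, the fetal subunit of the acetylcholine receptor, at 1.16. The 10 macrophage markers summed to 131 CPM in GRf/f and 465 CPM in GRmKO muscle, with 8 of 10 at least 2-fold higher and none at 0. The 7 fibroblast markers summed to 1846 and 2783 CPM, with 2 of 7 higher, and the 10 myofibre markers to 150544 and 112304 CPM. Under CORT the macrophage sums were 129 and 172 CPM. There 3 of the 11 genes of denervated and immature muscle were higher in GRmKO muscle, beside 4.4% of all genes. Of 9 tested hepatocyte markers, 8 were at least 2-fold higher in GRmKO muscle under either treatment, at sums of 45.9 and 113 CPM in GRf/f and 142 and 416 CPM in GRmKO muscle, and *Apoa2* was listed at 0 in both GRf/f libraries. The median hepatocyte marker reached 0.232% of its liver level in CORT-treated GRmKO muscle, a share at which liver would bring 0.0235 CPM of *Cdkn1a* and 0.0102 CPM of *Gadd45g*. What part the macrophages and fibroblasts had in the levels of *Gadd45a*, *Cdkn1c* and *Gadd45g* was not tested.

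*Ccng1* (ENSMUST00000020576, chr11:40748552-40755311, minus strand) encodes cyclin G1, which recruits a phosphatase to MDM2. It was the most abundant of the 8 genes in gastrocnemius, at 852 and 860 CPM in GRf/f mice and 852 and 906 CPM in GRmKO mice, vehicle before CORT. These 4 libraries differed by at most 1.06-fold (1.04 to 1.09) within a genotype. In liver *Ccng1* stood at 33.2 and 38.2 CPM in GRf/f mice and 36.4 and 47.4 CPM in GRmKO mice. The largest difference between treatments was that in gonadal WAT, at 163 and 325 CPM in GRf/f mice and 198 and 273 CPM in GRmKO mice. With CORT the log2 change there was 0.9975 in GRf/f mice, and the GRmKO level was 1.38-fold higher (1.32 to 1.44).

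*Mdm2* (ENSMUST00000020408, chr10:117688875-117710758, minus strand) encodes the ubiquitin ligase of p53 and is itself raised by p53. Its levels were 58.1 and 46.2 CPM in gastrocnemius of GRf/f mice and 46.0 and 51.6 CPM in that of GRmKO mice. In liver they were 15.9 and 23.2 CPM in GRf/f mice and 18.9 and 17.5 CPM in GRmKO mice, and in gonadal WAT 24.8 and 39.2 CPM and 35.7 and 36.5 CPM. In GRf/f mice CORT went with a 1.26-fold lower level (1.15 to 1.37) in muscle but a 1.46-fold (1.26 to 1.68) and a 1.58-fold (1.41 to 1.77) higher level in liver and fat. The corresponding ratios in GRmKO mice were 1.12-fold (1.03 to 1.23), 0.929-fold (0.804 to 1.08) and 1.02-fold (0.921 to 1.14).

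**Figure D2:**
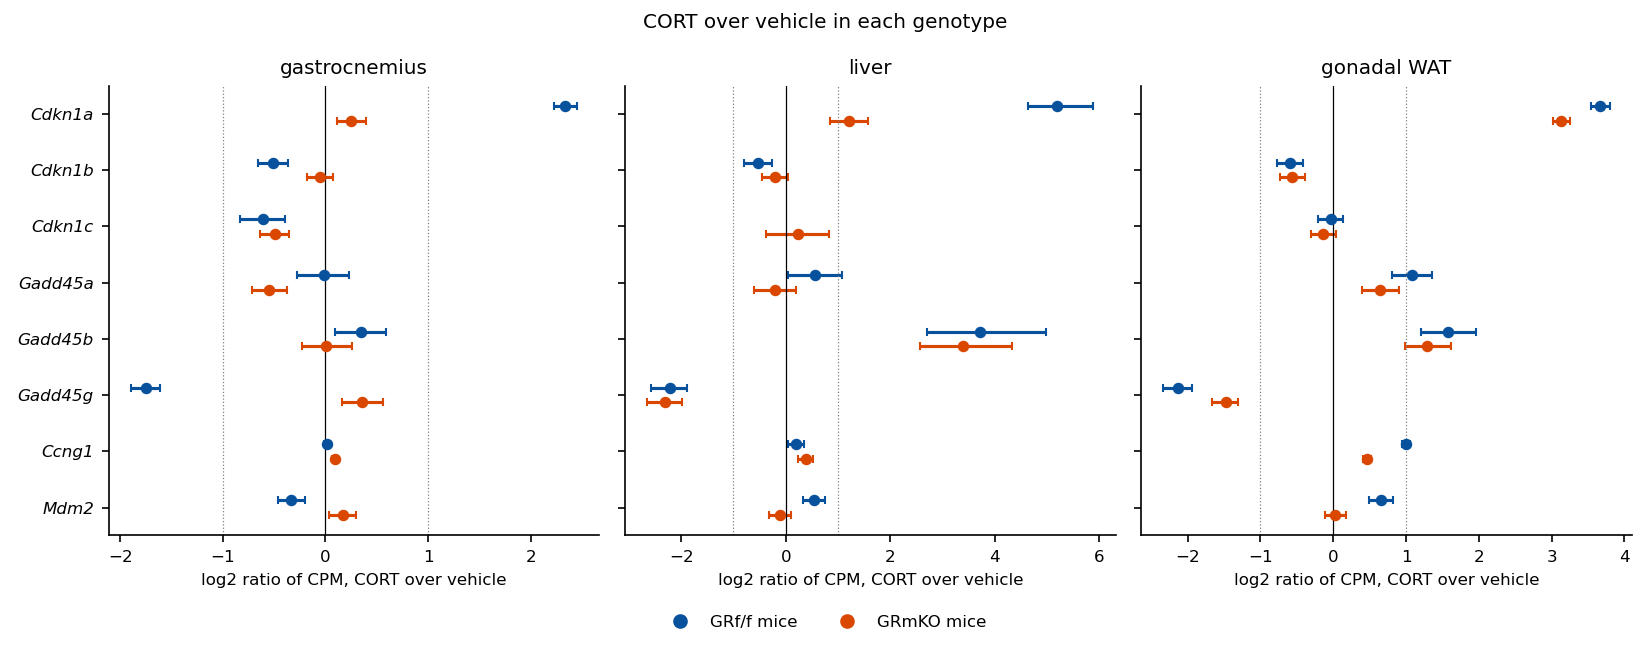
Log2 ratio of CPM between CORT and vehicle for each growth arrest gene, by tissue, in GRf/f mice (blue) and GRmKO mice (orange). Bars are 95% exact counting intervals, dotted lines mark 2-fold, horizontal ranges differ between panels, and the ratios of *Cdkn1c* against a library listed at 0 are left out. *Cdkn1a* and *Gadd45g* lie on opposite sides of 0 in every tissue of GRf/f mice, and in gastrocnemius of GRmKO mice both lie close to 0.

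Read over the genes, a change of at least 2-fold was called on log2 ratios after 0.5 CPM had been added to both levels, among those genes that none of the 4 libraries of a tissue listed at 0. All 8 genes met that condition in gastrocnemius and gonadal WAT, and 7 did in liver, where *Cdkn1c* did not. In gastrocnemius of GRf/f mice 1 of the 8 genes was higher with CORT, beside 3.26% of all 13543 genes, and 1 was lower, beside 4.72% (7.97% in either direction). In that of GRmKO mice 0 of 8 were past 2-fold, beside 1.51% of all genes higher and 5.02% lower (6.53% in either direction). In liver 2 of 7 were higher in GRf/f mice, beside 5.9% of 12485 genes, and 1 was lower, beside 5.72% (11.6% in either direction). In GRmKO liver 2 were higher as well, beside 2.8%, and 1 was lower, beside 2.82% (5.61% in either direction). In gonadal WAT 3 of 8 were higher in GRf/f mice, beside 5.49% of 14218 genes, and 1 was lower, beside 8.07% (13.6% in either direction). In GRmKO fat 2 were higher, beside 3.47%, and 1 was lower, beside 5.63% (9.1% in either direction). These counts are fixed in part by the choice of genes, so nothing is read from them against the background. The median log2 change of the genes with CORT in GRf/f mice was -0.17 in muscle, 0.48 in liver and 0.82 in gonadal WAT, where all genes had medians of -0.08, 0.00 and -0.07. In GRmKO mice the medians were 0.05, -0.10 and 0.25, where all genes had -0.10, 0.05 and -0.12. In GRf/f fat, *Gadd45a* with a log2 change of 1.03 lay just inside the call and *Ccng1* with 0.9975 just outside it.

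Between the genotypes, 2 of the 8 genes were higher in GRmKO muscle under vehicle, beside 4.59% of all genes, and 1 was lower, beside 3.18% (7.77% in either direction). Under CORT 1 was higher, beside 4.4%, and 1 was lower, beside 5.31% (9.71% in either direction). *Cdkn1c* was the member past 2-fold under both treatments, *Gadd45a* and *Gadd45g* under vehicle alone and *Cdkn1a* under CORT alone, where GRmKO muscle held 4.22-fold less (3.93 to 4.55). In liver *Cdkn1a* was the single tested member called. *Gadd45a* under vehicle, 2.01-fold higher in GRmKO mice, had a log2 change of 0.89 after 0.5 CPM was added and missed the call, and *Cdkn1c* under CORT, whose GRf/f level was 0.363-fold (0.200 to 0.612) of the GRmKO level, was not tested. *Cdkn1a* was 3.92-fold higher (2.51 to 6.63) in GRmKO mice under vehicle, beside 1.26% of all genes higher and 1.04% lower (2.3% in either direction), and 4.05-fold lower (3.48 to 4.74) under CORT, beside 2.44% higher and 2.27% lower (4.72% in either direction). In gonadal WAT 0 of 8 were past 2-fold under vehicle, beside 1.07% of all genes higher and 1.15% lower (2.22% in either direction), and 0 of 8 under CORT, beside 1.43% and 1.19% (2.62% in either direction).

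**Figure D3:**
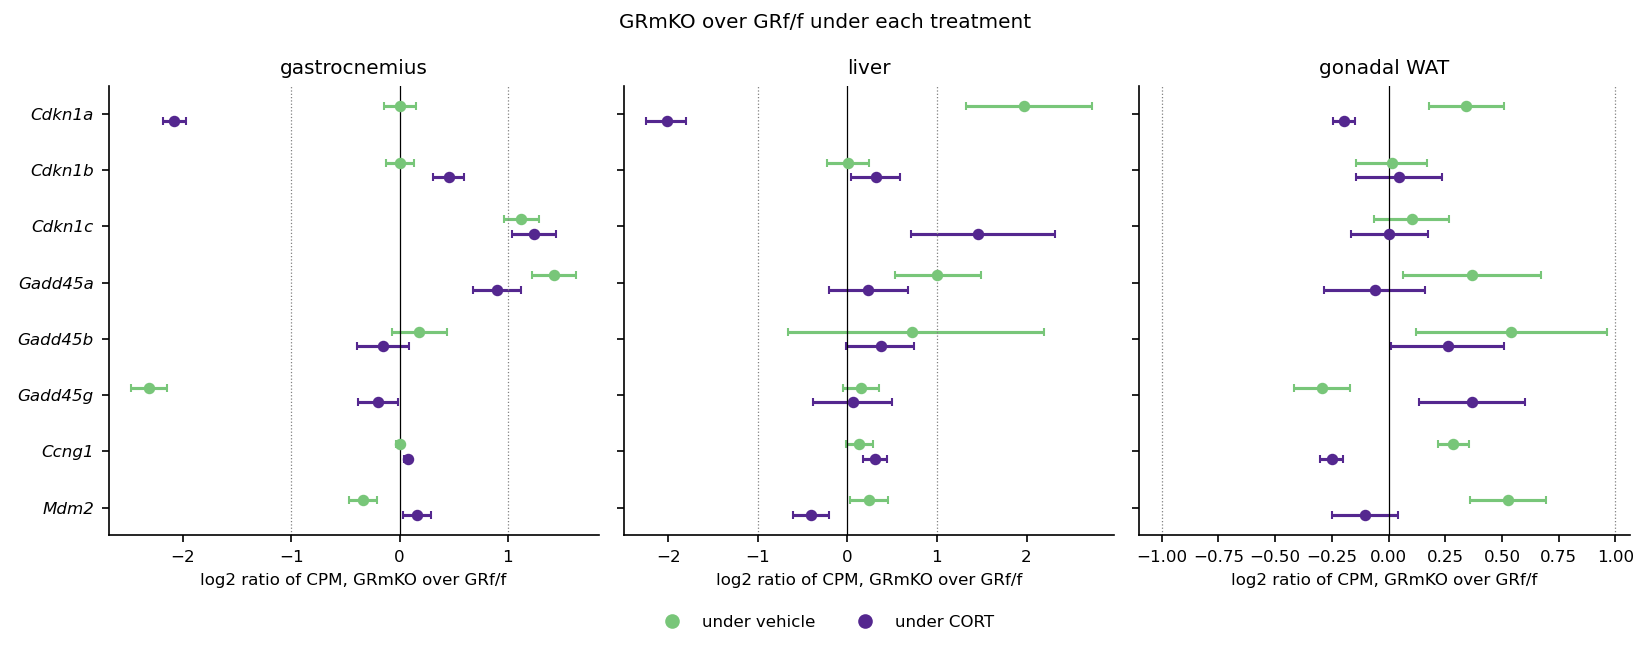
Log2 ratio of CPM between GRmKO and GRf/f mice for each growth arrest gene, by tissue, under vehicle (green) and under CORT (purple). Bars are 95% exact counting intervals, dotted lines mark 2-fold, and horizontal ranges differ between panels. In liver *Cdkn1a* lies above 0 under vehicle and below 0 under CORT, and in gonadal WAT no gene reaches 2-fold.

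The difference between genotypes in the CORT ratio was computed for each gene from its 4 libraries. For *Cdkn1a* the ratio was 4.25-fold larger (3.75 to 4.81) in GRf/f than in GRmKO muscle, 15.9-fold larger (9.80 to 25.7) in liver and 1.45-fold larger (1.29 to 1.63) in gonadal WAT. For *Gadd45g* it was 4.32-fold larger (3.65 to 5.12) in GRmKO than in GRf/f muscle, 0.939-fold (0.680 to 1.30) in liver and 1.58-fold larger (1.32 to 1.89) in gonadal WAT. The liver value of *Gadd45g* thus lay within counting error of no difference, unlike that of *Cdkn1a* in the same libraries. *Mdm2* had a CORT ratio that was 1.57-fold larger (1.28 to 1.92) in GRf/f than in GRmKO liver and 1.55-fold larger (1.33 to 1.80) in fat. In muscle its ratio went the other way, 1.41-fold larger (1.25 to 1.60) in GRmKO mice. The ratio of *Ccng1* was 1.45-fold larger (1.37 to 1.54) in GRf/f fat. That of *Gadd45a* was larger in GRf/f mice by 1.44-fold (1.17 to 1.77) in muscle, 1.71-fold (1.11 to 2.63) in liver and 1.35-fold (1.04 to 1.74) in fat. For *Gadd45b* the interval of this difference held 1 in each tissue, from 0.507 to 3.18 in liver. Without replicates these differences could not be tested against the spread between mice.

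Per kilobase of the deposited transcript, levels can be set side by side between genes only roughly. It is not settled whether a value is that of this transcript or of the gene, whose other transcripts can differ in length. *Ccng1* led in gastrocnemius with 242 to 258 CPM per kilobase, and *Gadd45g* followed in vehicle-treated GRf/f muscle with 82.6, while in CORT-treated GRf/f muscle it was *Cdkn1a* with 98.5. In CORT-treated fat *Cdkn1a* led with 180 CPM per kilobase in GRf/f and 157 in GRmKO mice, above *Ccng1* with 92.6 and 77.8. In vehicle-treated fat *Gadd45g* with 55.7 and *Ccng1* with 46.3 CPM per kilobase led in GRf/f mice, and *Cdkn1a* stood at 14.2. In liver *Gadd45g* came first in vehicle-treated mice, at 18.3 and 20.3 CPM per kilobase, and *Cdkn1a* in CORT-treated GRf/f mice, at 21.4. In CORT-treated GRmKO liver *Ccng1* came first, at 13.5, and *Cdkn1a* stood at 5.29. Reads of the family members can be told apart, since 0 of the 31-base runs in the *Cdkn1* and *Gadd45* transcripts occur in another protein-coding gene, against 3 in *Ccng1* and 16 (0.521%) in *Mdm2*.

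Other p53 target genes were followed in a list of 28 that excludes the genes above. With CORT 1 was at least 2-fold higher and 2 lower of 28 in GRf/f muscle, beside 7.97% of all genes past 2-fold, with a median log2 change of 0.02 against -0.08 for all genes. In GRf/f liver 1 was higher and 3 lower of 26 tested, beside 11.6% of all genes, with a median of -0.08 against 0.00. In GRf/f fat 0 were higher and 1 lower of 26, beside 13.6% of all genes, with a median of -0.07 against -0.07. In GRmKO mice the counts were 1 higher and 3 lower in muscle, 2 and 1 in liver and 0 and 2 in fat, beside 6.53%, 5.61% and 9.1% of all genes. The largest changes in GRf/f muscle were those of *Trp53i11* (-2.34 on the log2 scale), of *Ddit4*, an inhibitor of mTORC1 (-1.82), and of the stress protein gene *Sesn1* (1.38). In liver they were those of the kinase gene *Plk3* (-2.34), the antiproliferative gene *Btg2* (-1.32) and *Trp53inp1* (-1.06). In fat *Ddit4* (-3.68), *Sesn2* (-0.89) and the DNA repair gene *Ddb2* (-0.80) came first. Between genotypes the list had 0 higher and 1 lower in muscle under vehicle and 0 and 3 under CORT, with at most 2 of 26 past 2-fold in either direction in liver or fat. Of all genes, 7.77% and 9.71% were past 2-fold in those muscle comparisons and 2.22% to 4.72% in liver and fat.

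**Figure D4:**
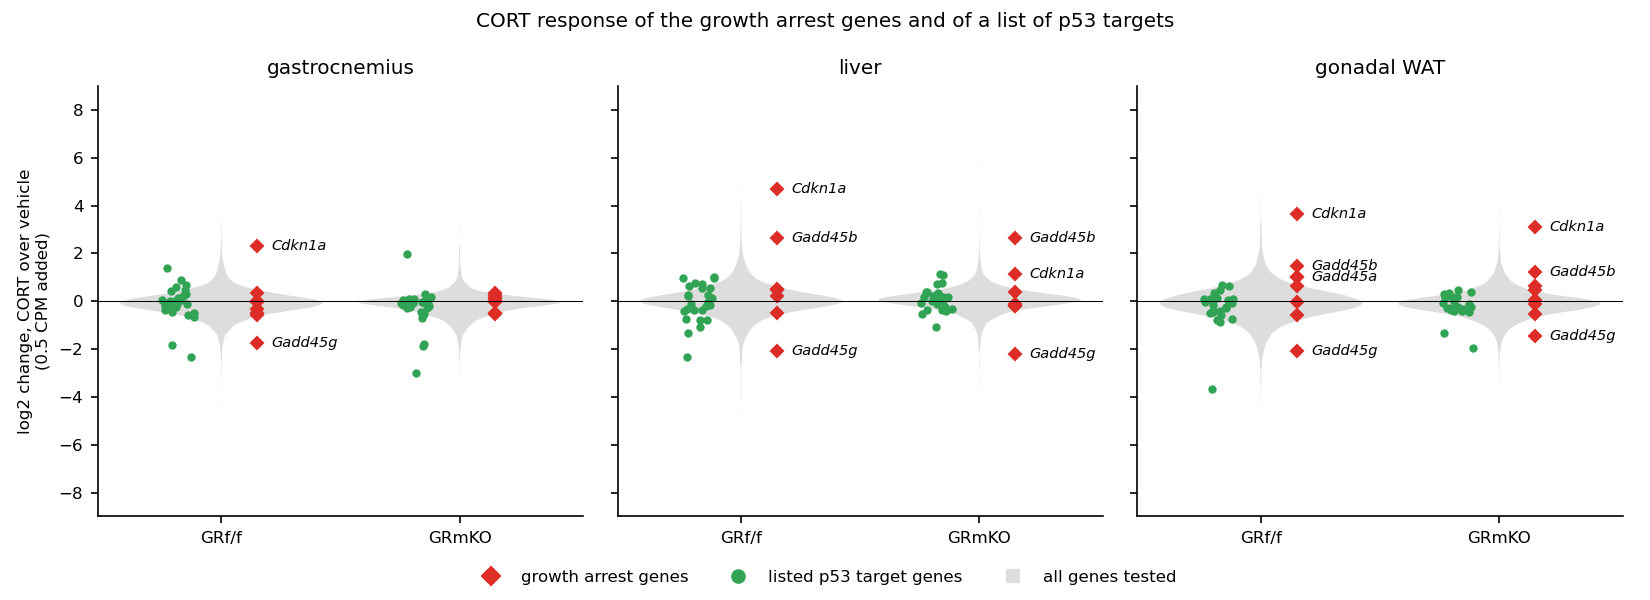
Log2 change between CORT and vehicle (0.5 CPM added) by tissue and genotype for the growth arrest genes (red diamonds), a list of p53 target genes (green points) and all genes tested (grey shapes, widths showing density). In GRf/f muscle, liver and fat the listed p53 targets have medians of 0.02, -0.08 and -0.07. *Cdkn1a* and *Gadd45g* lie above and below those medians, but they were chosen because they stood out. A listed target lies below *Gadd45g* in each of these tissues, namely *Trp53i11* (-2.34) in muscle, *Plk3* (-2.34) in liver and *Ddit4* (-3.68) in fat.

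Among p53 and its regulators, 10 genes of which 6 were tested in gastrocnemius and gonadal WAT and 5 in liver, *Ccng2* was 1.06 higher on the log2 scale with CORT in GRf/f muscle and 1.52 in GRf/f liver, and *Atm*, the kinase that senses DNA breaks, 2.01 higher in GRf/f fat. Each was the only one of its list past 2-fold there, and none was lower. In GRmKO mice 0 of these genes were past 2-fold with CORT in any tissue, beside 6.53%, 5.61% and 9.1% of all genes. In GRf/f mice the shares of all genes were 7.97%, 11.6% and 13.6% in muscle, liver and fat. With so few genes tested, nothing is read from these counts. *Trp53* itself stood at 14.2, 21.8 and 12.8 CPM in 3 of the muscle libraries and was listed at 0 in vehicle-treated GRf/f muscle, so it was not tested.

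The targets of Cip/Kip inhibitors were followed as G1 cyclins and their kinases. With CORT 0 of 8 were higher and 2 lower in GRf/f muscle, 0 and 2 of 7 in GRf/f liver and 0 and 0 of 8 in GRf/f fat, and in GRmKO mice 0 and 1, 0 and 2, and 1 and 0. Beside this list and the next, 3.26% of all genes were higher and 4.72% lower in GRf/f muscle. The shares were 5.9% and 5.72% in GRf/f liver and 5.49% and 8.07% in GRf/f fat. In GRmKO mice they were 1.51% and 5.02%, 2.8% and 2.82%, and 3.47% and 5.63%. *Ccnd1*, the cyclin D1 gene, was lower in GRf/f muscle (-1.65) and liver (-2.39), as were *Ccne2* in muscle (-1.50) and *Cdk2* in liver (-1.66). In GRmKO mice *Ccnd1* was lower as well, at -2.46 in muscle and -1.66 in liver. There *Ccne2* in muscle changed by -0.28 and *Cdk2* in liver by -0.93. In GRf/f fat the change of *Ccnd1* was -0.90 and that of *Ccnd2* 0.91. The S and mitotic phase genes, among them *Mki67* and *Top2a*, had 0 higher and 3 lower of 11 in GRf/f muscle, 2 and 1 of 12 in liver and 1 and 0 of 14 in fat, and in GRmKO mice 0 and 3, 1 and 0, and 4 and 0. Some of them were near the floor, as with *Top2a* at 0.754 and 0.0514 CPM and *Mki67* at 0.954 and 0.206 CPM in GRf/f muscle. There *Aurka* stood at 6.95 and 2.94 CPM, and the 14 genes of the list summed to 42.0 and 36.7 CPM. *Rrm2*, a subunit of ribonucleotide reductase, had the largest change of the list in GRf/f liver, with 3.39 and 20.3 CPM.

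Of the INK4 inhibitors and the retinoblastoma family, the other brake on G1, *Cdkn2b* (p15) in GRf/f fat was the single gene past 2-fold with CORT, with 8.72 and 28.5 CPM and a log2 change of 1.65. In GRmKO fat it stood at 10.99 and 22.4 CPM, just outside the call with a log2 change of 0.995. None of the 6 genes tested in muscle or 5 in liver was past 2-fold. Of 8 kinases that act with GADD45 proteins, *Map2k6* in GRf/f liver was the single gene past 2-fold, with a log2 change of -1.31. Of 4 genes for the breakdown of Cip/Kip proteins, *Fbxw7* in liver was higher with CORT in GRf/f mice (1.13) and lower in GRmKO mice (-1.18). The other gene of the 4 past 2-fold was *Skp2*, the receptor that targets p27 for breakdown, named here after its values were seen, with 0.943 and 2.57 CPM in GRmKO liver. Over all genes, the shares past 2-fold with CORT were 7.97%, 11.6% and 13.6% in muscle, liver and fat of GRf/f mice. In GRmKO mice they were 6.53%, 5.61% and 9.1%.

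Upstream factors differed in part. Of 12 genes for FoxO, ATF4 and related factors, 0 were higher and 3 lower with CORT in GRf/f muscle, 2 and 3 in GRf/f liver and 1 and 3 in GRf/f fat, and in GRmKO mice 0 and 0, 1 and 1, and 1 and 2. In GRf/f muscle the lower ones were *Egr1* (-1.41), *Cebpb* (-1.20) and *Cebpd* (-1.18). In liver *Myc*, a repressor of *Cdkn1a* by textbook knowledge, stood at 0.580 and 5.02 CPM in GRf/f mice and 3.18 and 1.88 CPM in GRmKO mice, and *Ddit3*, the stress factor CHOP, at 2.66 and 10.7 CPM and 6.65 and 5.17 CPM. Both were highest in CORT-treated GRf/f liver, as was *Cdkn1a*, and unlike it they were lower with CORT in GRmKO liver. The more abundant *Cebpb* went the other way, at 167 and 42.5 CPM in GRf/f liver and 160 and 87.7 CPM in GRmKO liver. What part these factors had in the level of *Cdkn1a* was not tested. The list of 9 direct GR targets had 5 higher and 2 lower in GRf/f muscle, 4 and 0 of 8 in GRf/f liver and 3 and 3 in GRf/f fat, and in GRmKO mice 1 and 0, 2 and 1, and 2 and 2. Beside both lists, 3.26% of all genes were higher and 4.72% lower in GRf/f muscle. The shares were 5.9% and 5.72% in GRf/f liver and 5.49% and 8.07% in GRf/f fat. In GRmKO mice they were 1.51% and 5.02%, 2.8% and 2.82%, and 3.47% and 5.63%.

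The genes whose pattern was most like that of *Cdkn1a* were sought by Pearson's r over the 12 libraries, on log2 levels centred within each tissue, among 6731 genes with a mean of at least 5 CPM in every tissue. Among the first were *Mt1* (r = 0.97), which encodes a metallothionein and is a GR target, *Ube2g2* (0.97), *Fgf1* (0.96) and *Pdha1* (0.95). *Fkbp5* had r = 0.78 with *Cdkn1a*, *Ccng1* 0.70, *Mdm2* 0.60, *Gadd45g* -0.75 and *Cdkn1b* -0.95, which was place 6726 of 6731. For *Gadd45g* the most alike were *Dalrd3* (0.93), *Decr2* (0.91), *Hip1r* (0.90), *Mccc2* (0.90) and *Sorbs3* (0.90), and with a mean of at least 20 CPM only *Mccc2* of these stayed among the first 5. The 12 points share tissues and library sizes.

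RefSeq held promoter windows for 7 of the 8 genes, all but *Cdkn1c*. The p53 motif was found at the start of the deposited transcript in 3 of the 7, namely *Ccng1*, *Gadd45a* and *Mdm2*, and in 7.13% of all windows. CCAAT was found in 6 of 7 and the GC box in 5 of 7. The E-box and the TATA box were each found in 2 of 7, *Gadd45b* and *Gadd45g*, and the FoxO motif GTAAACA, in 3.17% of all windows, in *Mdm2* alone. The GR motif AGAACA was in 0 of 7 and in 16.1% of all windows, and the cAMP motif TGACGTCA in 0 of 7 and in 1.55%. Positions of GR binding outside these 250 bases were not examined. *Cdkn1a* and *Gadd45g*, which differed in opposite directions with CORT in GRf/f mice, shared none of the motifs searched at the starts of their deposited transcripts.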

How the data were processed

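RNA of 3 mice was pooled for each of 12 libraries and sequenced as paired 100-base reads on a DNBSEQ-G400. The authors estimated transcript abundance with Salmon 1.2.1 on protein-coding transcripts of GENCODE M20 and summarised it with tximport in R 3.5.0, scaled by length and library size, so the deposited values are expected counts (estimated counts that need not be whole). Here each value was divided by its library total to give CPM, without removing any entry. Where a symbol had several entries, the authors had kept the one with the largest total.

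Members and lists were chosen with earlier results of these data known. Levels carry 95% Wilson intervals, and ratios carry exact binomial (Clopper-Pearson) intervals from the rounded counts of both libraries. A call was a log2 ratio of at least 1 after adding 0.5 CPM. The genes tested were above 0 in all 4 libraries of a tissue, and the floor for a library at 0 was 3 counts (0.143 to 0.155 CPM). The difference between genotypes in the CORT ratio was the ratio of both ratios, with a delta-method interval. With 1 library per group no test was run, and the authors' NOISeq comparison, which simulates replicates, was not repeated.

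Named genes were the 8 members, at most 3 genes of each list (those with the largest CORT change in GRf/f mice in the tissue described), the 5 genes most like *Cdkn1a* or *Gadd45g* (1 of which is not reported here), and *Nr3c1* and *Fkbp5* as checks of the deletion and the treatment. Genes named outside this rule, after their values were seen, were *Trp53*, *Skp2*, *Cidec*, *Apoa2* and the further correlations of *Cdkn1a*. Other settings were TMM factors (edgeR 4.0.16) and median-of-ratios factors (DESeq2 1.42.0) in R 4.3.3, totals without the 10 most abundant entries, 0.1 or 2 CPM added, a 1.5-fold call and a mean of at least 1 CPM. Gene positions came from GENCODE M21 on GRCm38. Calculations ran in Python 3.11.15 (pandas 2.3.3, numpy 2.4.6), intervals came from scipy 1.17.1 and plots from matplotlib 3.10.9. The steps were tested on simulated data.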

Additional observations from a re-analysis of the deposited data

Results flagged for a closer look

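In liver the genotypes differed in *Cdkn1a* in opposite directions by treatment. The log2 change of GRmKO against GRf/f mice was 1.59 under vehicle and -1.97 under CORT, a difference of -3.56 that was not tested, since each group was 1 library. The vehicle levels behind it were 1.12 CPM (23 counts) and 4.38 CPM (91 counts).

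*Gadd45g* in gastrocnemius had a log2 change with CORT of -1.73 in GRf/f mice and 0.35 in GRmKO mice, a difference of 2.08. Within GRmKO mice its change with CORT was 0.35 in muscle, -2.19 in liver and -1.45 in fat, so liver differed from gastrocnemius by -2.54 and gonadal WAT by -1.80. These differences between genotypes and tissues were not tested either.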

How the results depend on the processing

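Of the 117 log2 values of the growth arrest genes (changes and differences between genotypes), none that was past 2-fold changed sign under the 5 settings of scaling and added CPM, and between 106 and 117 of them stayed within their counting interval. The number past 2-fold was within 1.5 times that reported in every comparison but 1, GRmKO against GRf/f liver under vehicle, where a 1.5-fold call gave 2 genes against 1, by construction of the lower limit. In GRf/f fat with CORT the count was 5 under TMM and median-of-ratios factors, where *Ccng1* reached 1.07 and 1.08, 3 without the 10 most abundant entries or with 2 CPM added, where *Gadd45a* stood at 0.97 and 0.92, and 6 with the 1.5-fold call, against 4. With 2 CPM added *Cdkn1a* in liver with CORT stood at 3.79 in GRf/f mice, against 4.68. In GRmKO liver it stood at 0.93, against 1.12, and so lost its call. TMM factors shifted the median of all genes with CORT in GRmKO mice by 0.13 in gastrocnemius and 0.12 in gonadal WAT. The split of calls over all genes (higher and lower) then became 261 and 496 in gastrocnemius, against 205 and 680, and 645 and 597 in gonadal WAT, against 494 and 800. Median-of-ratios factors gave 258 and 501, 643 and 601, and in GRf/f gastrocnemius 544 and 518, against 441 and 639. Of the 5 genes most like *Gadd45g*, 1 was shared with those at 20 CPM or more. No paired analysis was possible because each group was a single library, and for the same reason no library could be left out. Depth limited values in vehicle-treated liver, where *Cdkn1c*, *Gadd45b*, *Gadd45a* and *Cdkn1a* had 0, 8, 57 and 23 counts in GRf/f mice.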
